A study of Mus musculus with 10 samples.

Results

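The genes described here are 10 effector genes of cytotoxic lymphocytes: the granzymes Gzma, Gzmb, Gzmk and Gzmm, the pore-forming Prf1, the granule proteins Nkg7 and Ctsw, the death ligand Fasl and the chemokines Ccl4 and Ccl5. They were chosen by name and read through probe sets annotated to 1 gene alone, 12 probe sets in all, out of 18194 genes with such a probe set. Where a gene had more than 1 probe set (Prf1 and Fasl), the one with the highest mean over the arrays was used and the other served as a check. Of the 10 genes, 9 reached the median over all probe sets on at least 1 array and entered the comparisons, among 11939 genes that did so. Gzmm did not.

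The study profiled CD4 T cells sorted from mice on 10 Affymetrix arrays, 1 for each of 10 groups, the cells of an array coming from lymph nodes and spleen pooled together. From homozygous female Foxp3(gfp/gfp) mice, in which green fluorescent protein (GFP) is fused to the regulatory T cell factor Foxp3 at its own locus, came GFP-negative CD25-negative cells (CD25neg), GFP-negative CD25-positive cells (CD25pos) and GFP-positive cells (GFPfoxp3). Foxp3(gfpko/wt) females gave GFP-positive cells that read a locus making GFP in place of Foxp3 (GFPko). Since the locus is X-linked, each cell uses only 1 of the alleles, and these mice also hold cells that make normal Foxp3. CD25pos, GFPko and GFPfoxp3 cells were taken in addition from mice that had received IL-2 by 4 injections of 50 ng per g within 24 h, and isolated 30 min after the last. Whether mice of the untreated arrays were injected with vehicle is not stated on their labels. The Foxp3(gfp/gfp) mice were at backcross 8 to 10 from 129/Sv to C57BL/6 and the Foxp3(gfpko/wt) mice at backcross 5, so this difference cannot be told apart from that of the alleles.

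For the remaining 3 arrays, CD25-positive CD4 cells of C57BL/6 mice were stimulated in culture with anti-CD3, anti-CD28 and IL-2. The doses were 100 ng per ml of each antibody and 100 U per ml of IL-2. The labels give at least 70% Foxp3-positive cells in culture, so other cells may have been present. The cultured cells were transduced with the retroviral vector MigR1, which also carries GFP. The vector was empty (MigR1_empty), carried the cAMP-degrading phosphodiesterase PDE3B (MigR1_PDE3B), or carried PDE3B with the substitution H801A (MigR1_PDE3B_H801A). The cells were mixed with CD25-negative CD4 cells of B6.SJL (Ly5.1+) mice that held the same vector and were transferred into TCRalpha-deficient recipients. After 3 weeks GFP-positive, Ly5.1-negative CD4 cells were sorted for GITR, a surface receptor that regulatory T cells carry in abundance. All mice were labelled female and 6 to 8 weeks old. The labels do not say how many animals went into an array.

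Cytotoxic lymphocytes kill by releasing granules onto a target cell. Perforin opens the target membrane, granzymes are serine proteases that enter and cleave proteins of the cell, and Fas ligand on the killer surface starts death through the receptor Fas. The chemokines Ccl4 and Ccl5 are released by activated cytotoxic and memory T cells and draw in other leukocytes. These genes are best known from CD8 T cells and natural killer (NK) cells, but activated CD4 T cells and some regulatory T cells also express members of the set, granzyme B above all.

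All values are log2 expression values, and levels of different genes are not set against each other because each probe set has its own response. Foxp3 stood at 10.86 on both GFPfoxp3 arrays, at 8.33 and 9.39 in GFPko without and with IL-2, at 2.45 to 3.90 on the 3 arrays sorted as GFP-negative, and at 11.26 to 11.52 in the transduced cells. Pde3b lay between 11.62 and 11.73 in the GFP-negative cells, at 10.22 and 9.92 in GFPko and at 6.06 and 5.90 in GFPfoxp3. On the vector arrays Pde3b read 7.43 with the empty vector, 6.91 on the array labelled PDE3B and 7.54 on that labelled H801A, so the label of the PDE3B array was not borne out by this probe set, which may lie outside the transduced sequence. As a measure of RNA shortening, the 3′ control probe set of Actb exceeded the 5′ one by 2.70 to 3.80 on the 7 arrays of sorted cells and by 5.87 to 6.38 in the 3 of transduced cells, so these sets of arrays stand apart. All 5 CD4 T cell markers read were above the array median on all 10 arrays, and array medians were 3.04 to 3.22. Of the CD8 markers, Cd8a stayed between 3.13 and 3.30 and Cd8b1 between 3.69 and 5.53, the highest in GFPko after IL-2.

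No group had a replicate array. The 6 arrays of CD25pos, GFPko and GFPfoxp3 in both IL-2 states were fitted with limma as a sum of a population term and an IL-2 term, and p-values were corrected over all 11939 genes (Benjamini-Hochberg). A gene is said to rise or fall only where the adjusted p was under 0.05. These p-values measure how alike a difference was between IL-2 states or between populations, not how repeatable it was between animals. A gene called between populations will mostly go the same way in both IL-2 states, so that is no separate support. In bulk RNA, fewer cells that express a gene and less RNA per cell cannot be told apart. Comparisons of single arrays carry no test, and are described by differences of at least 2-fold with the higher array above its own median. Without replicates it cannot be judged which neighbours in an order of levels differ.

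**Figure D1:**
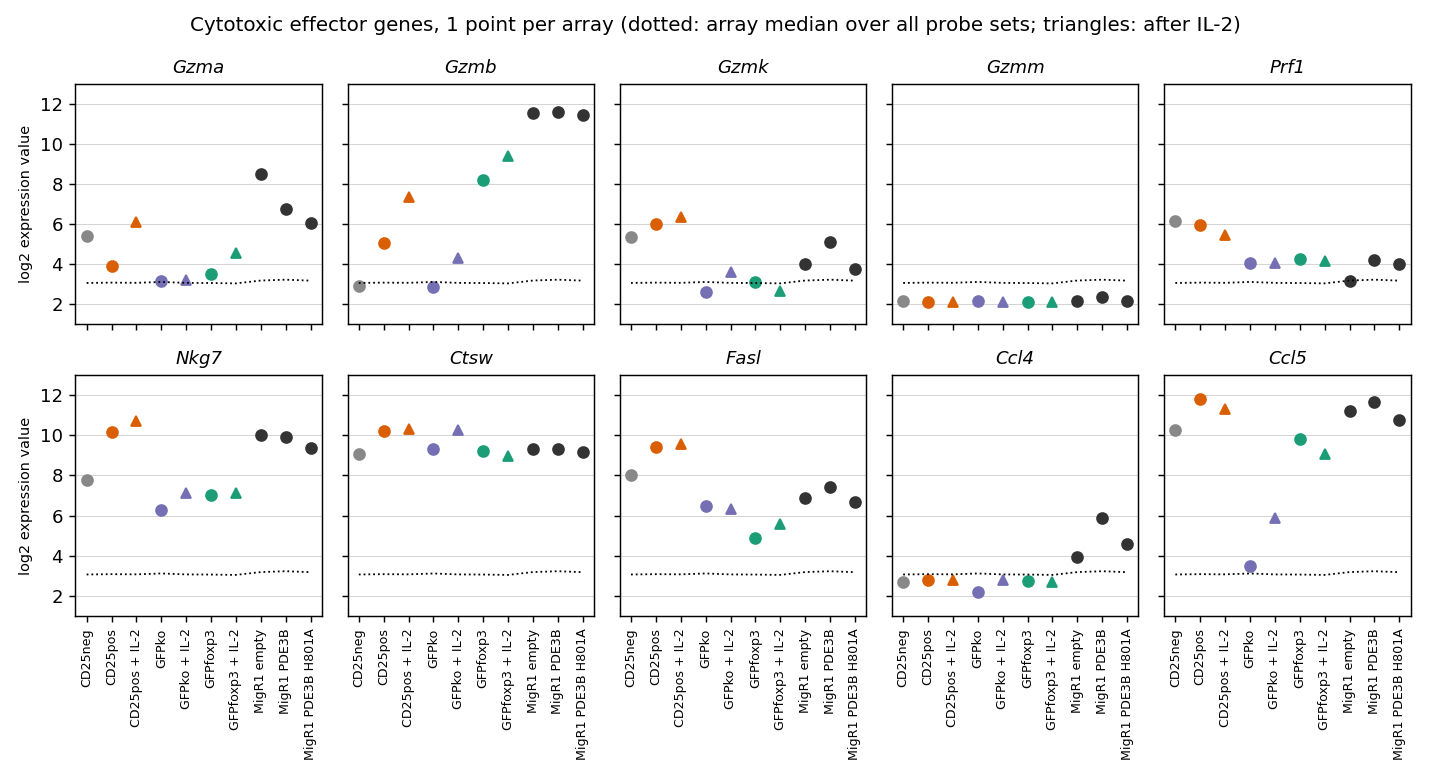
Log2 expression value (vertical axis) of the 10 genes on each of the 10 arrays (horizontal axis), 1 point per array, with triangles for arrays after IL-2 and a dotted line at each array's median over all probe sets. Gzmb is high in GFPfoxp3 (8.19 and 9.37) and on the vector arrays (11.44 to 11.58), Gzmk, Nkg7 and Fasl are high in CD25pos, and Gzmm lies below the dotted line throughout.

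Granzyme B, a protease that cleaves after aspartate and activates caspases, had the widest range of the granzymes. Gzmb read 2.92 in CD25neg and, without and with IL-2, 5.06 and 7.33 in CD25pos. The untreated and IL-2 arrays read 2.85 and 4.29 for GFPko and 8.19 and 9.37 for GFPfoxp3. Among transduced cells the empty vector gave 11.55, PDE3B 11.58 and H801A 11.44. CD25neg and untreated GFPko lay below their array medians, the GFPfoxp3 arrays lay above all others of sorted cells, and the vector arrays were the highest.

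Granzyme A, a tryptase that acts without caspases, followed another order. Gzma read 5.41 in CD25neg, 3.90 and 6.11 in CD25pos without and with IL-2, 3.15 and 3.19 in GFPko, and 3.48 and 4.58 in GFPfoxp3. The vector arrays read 8.50 for the empty vector, 6.76 for PDE3B and 6.06 for H801A. Both GFPko arrays were at the bottom, just above their array medians. Its probe set has _a_ in its name, and such probe sets were left out in 1 of the alternatives.

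Granzyme K, a tryptase typical of memory-like T cells, was high in the GFP-negative cells. Gzmk read 5.34 in CD25neg and 5.99 and 6.36 in CD25pos without and with IL-2, against 2.62 and 3.60 in GFPko and 3.09 and 2.67 in GFPfoxp3. The vector arrays read 4.01, 5.10 and 3.74 for empty, PDE3B and H801A. The 3 GFP-negative arrays lay above every array of GFPko and GFPfoxp3, of which 1 each was below its array median. Granzyme M, found mainly in NK cells, was at 2.09 to 2.35 (Gzmm), below the array median on all 10 arrays.

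Prf1, which encodes perforin, showed the same split between GFP-negative and GFP-positive sorted cells. It read 6.16 in CD25neg, 5.95 and 5.47 in CD25pos, 4.08 and 4.03 in GFPko and 4.24 and 4.17 in GFPfoxp3. On the vector arrays Prf1 was 3.17 with the empty vector, below that array's median, 4.23 with PDE3B and 3.99 with H801A. The other Prf1 probe set lay between 2.42 and 2.47, below the median on every array, so the result rests on 1 probe set. That probe set also has _a_ in its name.

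Nkg7, a membrane protein of cytotoxic granules needed for their release, read 7.76 in CD25neg, 10.19 and 10.69 in CD25pos, 6.26 and 7.11 in GFPko and 7.01 and 7.14 in GFPfoxp3. The vector arrays gave 10.00, 9.90 and 9.35 for empty, PDE3B and H801A, near the CD25pos arrays. Ctsw, a cathepsin-family protease of T and NK cells, varied least of the genes well above background. It read 9.05 in CD25neg, 10.22 and 10.30 in CD25pos, 9.30 and 10.28 in GFPko, 9.23 and 8.95 in GFPfoxp3, and 9.31, 9.30 and 9.19 on the empty, PDE3B and H801A arrays. Both CD25pos arrays and GFPko after IL-2 were the only arrays above 10.

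Fasl, which encodes Fas ligand, had its lowest levels in GFPfoxp3. It read 8.01 in CD25neg, 9.44 and 9.54 in CD25pos, 6.48 and 6.32 in GFPko, 4.89 and 5.58 in GFPfoxp3, and 6.85, 7.41 and 6.66 on the empty, PDE3B and H801A arrays. The other Fasl probe set was also highest on GFP-negative arrays, at 4.35 in CD25neg and 3.66 and 4.52 in CD25pos, against 2.31 and 2.72 in GFPko and 2.57 and 2.86 in GFPfoxp3.

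The chemokines differed in where they were detected. Ccl5, which draws in T cells and monocytes, read 10.26 in CD25neg, 11.79 and 11.32 in CD25pos, 3.47 and 5.90 in GFPko, 9.82 and 9.07 in GFPfoxp3, and 11.19, 11.65 and 10.75 on the empty, PDE3B and H801A arrays. GFPko stood alone at the low end, and no other array fell under 9. Ccl4, a chemokine released on activation, lay below the array median on all 7 sorted arrays, at 2.18 to 2.81, and passed the filter only through the vector arrays, where it read 3.95, 5.87 and 4.58 for empty, PDE3B and H801A.

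GFPfoxp3 and GFPko cells both use the Foxp3 locus, and their comparison asks what differs when the protein is made. Gzmb was the 1 member of 9 that rose, while 7.47% of all genes passed the test in this comparison. Its mean was 8.78 over the GFPfoxp3 arrays and 3.57 over the GFPko arrays, a difference of 5.21 (limma SE 0.291, 95% interval 4.42 to 6.00, adjusted p = 0.00793), or 37.0-fold, higher in 2 of 2 IL-2 states. As 1 of the 2 GFPko arrays was below its median, the size rests partly on background. Leaving out any of the 4 arrays compared ended this call, at adjusted p of 0.0643 to 0.0830 with differences of 4.88 to 5.55. No gene of the whole table was then called.

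Ccl5 was 4.76 higher in GFPfoxp3 than in GFPko (95% interval 2.41 to 7.10), which missed the threshold in limma (adjusted p = 0.0551, range over the alternatives 0.00893 to 0.252). Its arrays did not overlap, but the gap was 6.35 without IL-2 and 3.17 with it. Fasl was lower, with a difference of -1.17 (interval -1.79 to -0.54, limma adjusted p = 0.0642, range 0.0144 to 0.218), and its other probe set was below the median on all 4 arrays, which gives no direction. For Nkg7 the difference was 0.39 (interval -0.15 to 0.93), and for Prf1 0.15 (interval -0.26 to 0.56), so neither interval holds a 2-fold change. Gzma (0.86, interval -0.60 to 2.32), Gzmk (-0.23, interval -1.20 to 0.73), Ctsw (-0.70, interval -1.59 to 0.19) and Ccl4 (0.22, interval -0.33 to 0.78) did not pass either, the last with both sides below background. The median difference of the 9 members was 0.22, against 0.01 for all genes. When each array was centred on its median over the kept genes, Gzmb, Fasl and Ccl5 passed.

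Markers of other cells also moved between these populations. The summed level of 7 B cell markers was 37.0 to 37.5 in GFPfoxp3 and 30.1 to 31.2 in GFPko, although Cd79a and Pax5 were below the array median on all 10 arrays. Of the 5 tested, 3 rose and none fell, where 7.47% of all genes passed. The sum of 12 NK cell markers was 44.5 to 44.8 in GFPfoxp3 and 36.0 to 38.3 in GFPko. This was mostly through 1 gene, the receptor Klrg1 (10.79 and 11.17 against 3.53 and 4.68), which read 12.88 to 13.34 on the vector arrays. Of 10 NK markers tested, Klrg1 and Cd244a rose and none fell. The median difference of the 10 was -0.06, so the list as a whole was not higher in GFPfoxp3. Ncr1 and Itga2 were below the median on all arrays. The part of these cells in the Gzmb difference was not tested.

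**Figure D2:**
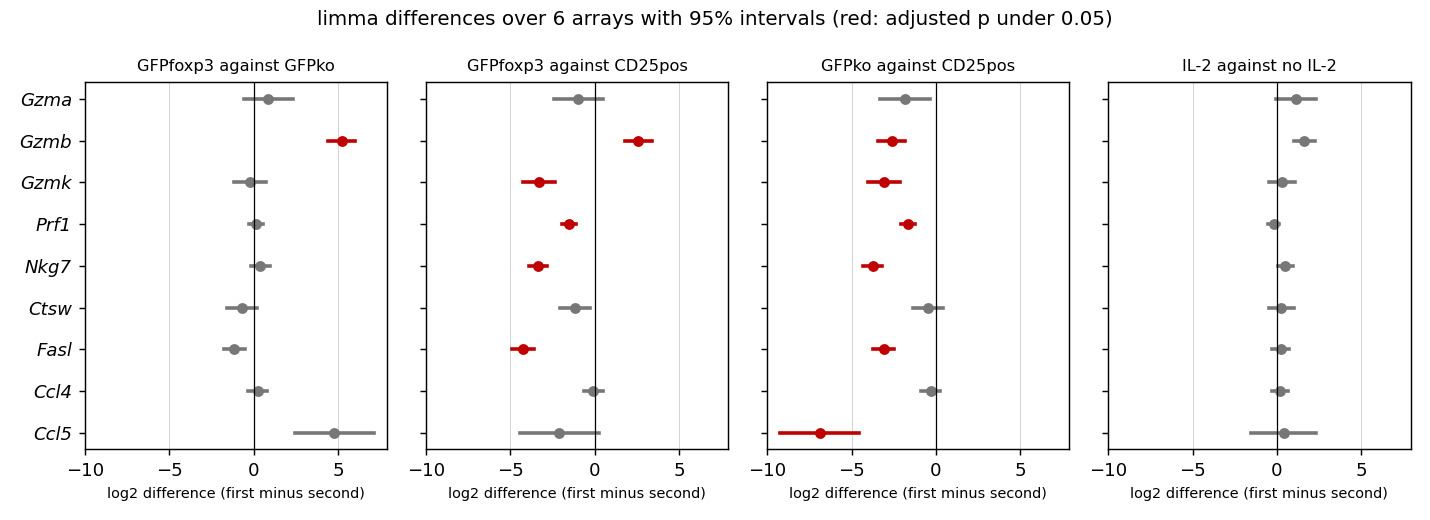
Difference in log2 expression (horizontal axes, first group minus second) of the 9 tested members in the 4 modelled comparisons, as limma estimates with 95% intervals over 6 arrays, red where the adjusted p was under 0.05. Gzmb lies at 5.21, 2.58 and -2.63 in the population comparisons, whereas Gzmk, Prf1, Nkg7 and Fasl lie on the negative side against CD25pos in both GFP-positive populations.

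Against CD25pos cells, which bear CD25 but no GFP-Foxp3, GFPfoxp3 cells held more Gzmb and less of several other killing genes. Of 9 members 1 rose and 4 fell, where 8.73% of all genes passed the test, and the median member difference was -1.51 against -0.03 over all genes. Gzmb was higher by 2.58 (limma SE 0.291, adjusted p = 0.0196), about 6.00-fold. Fasl fell by 4.26 (SE 0.231, adjusted p = 0.00549, 19.2-fold) and Nkg7 fell by 3.37 (SE 0.200, adjusted p = 0.00609, 10.3-fold). Gzmk fell by 3.30 (SE 0.354, adjusted p = 0.0182, 9.83-fold, a size that rests partly on background since 1 of the 2 GFPfoxp3 arrays was below its median) and Prf1 fell by 1.51 (SE 0.152, adjusted p = 0.0161, 2.84-fold). Without the filter on dim genes Gzmb (adjusted p = 0.0717, range over the alternatives 0.00199 to 0.127) and Gzmk (adjusted p = 0.0694, range 0.00102 to 0.0967) no longer passed.

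All of these 5 went the same way in 2 of 2 IL-2 states, which the fit favours in the genes it calls. The other Fasl probe set gave -1.38, and that of Prf1 was below background. Ctsw (-1.17, interval -2.06 to -0.28, limma adjusted p = 0.120), Ccl5 (-2.11, interval -4.45 to 0.23, adjusted p = 0.232), Gzma (-0.98, interval -2.44 to 0.48) and Ccl4 (-0.08, interval -0.64 to 0.47) did not pass. Without the untreated or the IL-2 array of GFPfoxp3 no member and no gene passed. Without either CD25pos array Gzmb, Nkg7 and Fasl did, and without either GFPko array Ccl5 passed (-2.11, adjusted p = 0.0321) and Gzmb did not.

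GFPko cells lay below CD25pos cells in 6 of the 9 members, against 3.48% of all genes that passed in either direction. The median member difference was -2.63, and -0.01 over all genes. Ccl5 fell by 6.87 (limma SE 0.861, adjusted p = 0.0395), 117-fold on the linear scale. This averages differences of -8.32 without IL-2 and -5.42 with it, and leaving out 1 array at a time gave -8.39 to -5.35. Nkg7 fell by 3.75 (SE 0.200, adjusted p = 0.0166), Fasl fell by 3.09 (SE 0.231, adjusted p = 0.0207) and Gzmk fell by 3.06 (SE 0.354, adjusted p = 0.0356). For Gzmk 1 of the 2 GFPko arrays was below its median.

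Gzmb fell by 2.63 (limma SE 0.291, adjusted p = 0.0332) and Prf1 fell by 1.66 (SE 0.152, adjusted p = 0.0252). For Gzmb too 1 of the 2 GFPko arrays was below its median. Each of the 6 fell in 2 of 2 IL-2 states. Gzma (-1.83, interval -3.29 to -0.38, limma adjusted p = 0.168), Ctsw (-0.47, interval -1.36 to 0.42) and Ccl4 (-0.31, interval -0.86 to 0.25) did not pass. Leaving out any 1 of the 6 arrays, or keeping all dim genes, left no member past the threshold, and leaving out an array left no gene of the table past it either. Both population comparisons use the same CD25pos arrays, so their falls are not independent of each other.

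The CD25pos arrays also held more summed signal from the listed genes of NK and innate-like T cells. Of 12 NK cell markers read, 9 were above the median on each CD25pos array, 4 to 5 in GFPko, in GFPfoxp3 and in the transduced cells, and 6 in CD25neg. The 9 were not the same on both CD25pos arrays, as Tyrobp was above it only without IL-2 and Cd244a only with IL-2. Their summed level was 53.8 to 54.8 in CD25pos, 45.1 in CD25neg, 36.0 to 38.3 in GFPko, 44.5 to 44.8 in GFPfoxp3 and 46.1 to 47.4 in the transduced cells. Klrd1, the CD94 receptor chain, read 8.91 and 9.46 in CD25pos and 8.88 in CD25neg but 2.86 to 4.57 in GFPko and GFPfoxp3. The NK-defining Ncr1 and Itga2 were below the median on all arrays. Against CD25pos, 5 of the 10 tested NK markers fell in GFPfoxp3 and 2 rose, where 8.73% of all genes passed. Klrg1 rose, at 4.86 and 4.84 in CD25pos and 10.79 and 11.17 in GFPfoxp3. Cd244a rose too, at 2.89 and 3.12 in CD25pos and 5.11 and 4.71 in GFPfoxp3.

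The 4 markers of gamma delta and NKT cells summed to 16.8 to 17.2 in CD25pos, 12.3 in CD25neg, 11.8 to 13.6 in GFPko, 10.1 in GFPfoxp3 and 10.7 to 11.7 in the transduced cells. Zbtb16, the factor of NKT cells, read 6.44 and 6.87 in CD25pos and 3.73 in CD25neg, and was below the median elsewhere. Cd163l1, a scavenger receptor gene of gamma delta T cells, read 5.52 and 4.68 in CD25pos, 3.22 in CD25neg and also 5.26 and 3.80 in GFPko, and was below the median in GFPfoxp3. Of the same list Sox13 and Blk were below the median on all arrays. The part of such cells in the higher Gzmk, Prf1, Nkg7 and Fasl of CD25pos was not tested.

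Transcription factors of cytotoxic cells, a list of 12 genes of which 11 were read, differed between the same populations. Tbx21, which encodes T-bet, read 10.04 and 9.51 in CD25pos, 5.27 and 4.70 in GFPko, 6.37 and 6.28 in GFPfoxp3 and 8.10 in CD25neg. Eomes, the related T-box factor of memory and NK cells, read 9.41 and 8.51 in CD25pos, 6.13 in CD25neg, 3.84 and 3.75 in GFPko, and 4.03 and 4.49 in GFPfoxp3. On the vector arrays Tbx21 was at 9.16 to 9.27 while Eomes was at 3.62 to 3.70.

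Against CD25pos, Eomes in GFPfoxp3 cells fell by 4.70 (limma adjusted p = 0.00893), Id2, an inhibitor of E proteins, fell by 3.80 (adjusted p = 0.00834) and Tbx21 fell by 3.45 (adjusted p = 0.00517). In all 3 factors of this list rose there and 4 fell, of 11 tested, where 8.73% of all genes passed. In GFPko cells against CD25pos, Eomes fell by 5.17 (limma adjusted p = 0.0191), Tbx21 fell by 4.79 (adjusted p = 0.00877) and Runx3, a factor of the CD8 lineage, fell by 1.60 (adjusted p = 0.0236), with 1 rise and 3 falls, where 3.48% of all genes passed. Between GFPfoxp3 and GFPko, Prdm1, which encodes Blimp-1, was higher by 2.56 (limma adjusted p = 0.00520) and Tbx21 by 1.35 (adjusted p = 0.0248), and Id2 fell by 2.23 (adjusted p = 0.0244), with 3 rises and 1 fall, where 7.47% of all genes passed. Nfil3, named after its values were seen, read 5.90 and 6.03 in GFPfoxp3, 4.85 and 4.70 in GFPko and 3.26 and 3.11 in CD25pos, and was the 1 factor that rose in all 3 comparisons.

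**Figure D3:**
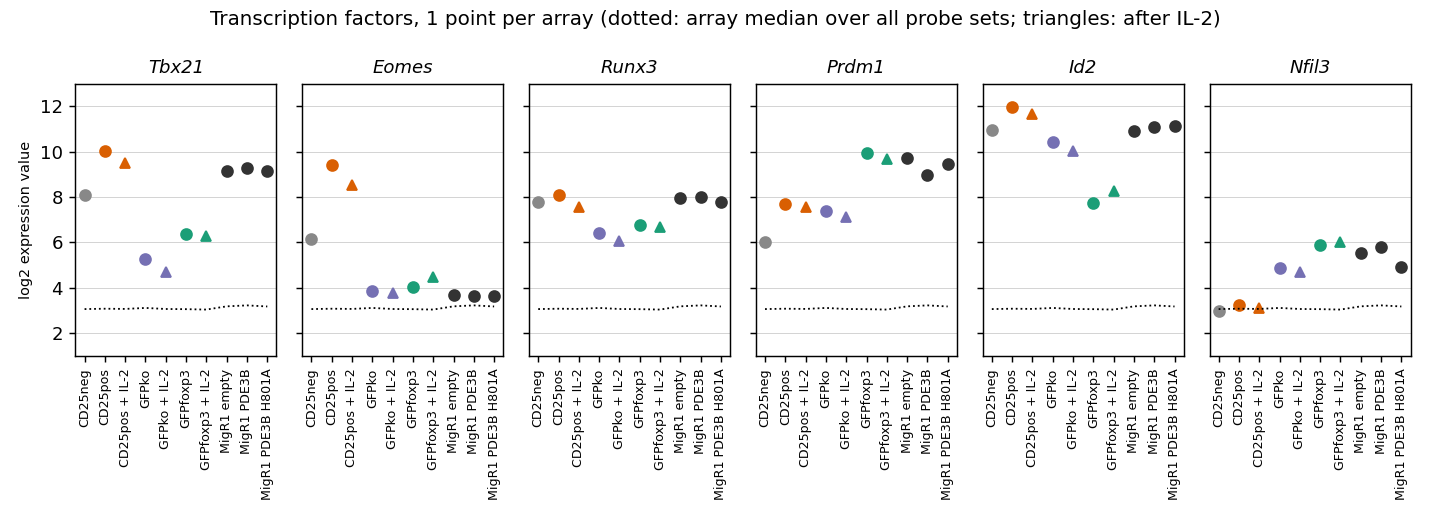
Log2 expression value (vertical axis) of 6 transcription factors on each of the 10 arrays (horizontal axis), 1 point per array, with triangles for arrays after IL-2 and a dotted line at each array's median. Tbx21 and Eomes are highest in CD25pos, Prdm1 is highest in GFPfoxp3 and the vector arrays, and Id2 is lowest in GFPfoxp3 at 7.75 and 8.26.

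Promoter sequences of 4 members that moved between populations are shown because the factors above bind short motifs. RefSeq promoters (build GRCm38.p6) matched 7 of the 10 members, all but Ctsw, Ccl4 and Ccl5. Gzmk, Nkg7 and Fasl were higher in CD25pos than in both GFP-positive populations, as was Prf1, whose promoter is not shown. Gzmb was higher in GFPfoxp3 than in CD25pos and lower in GFPko. The promoters of Gzmb, Gzmk, Nkg7 and Fasl are given as the 250 bases before the annotated start. They run 5′ to 3′ on the strand of the gene, chr14:56262335-56262584 on the minus strand for Gzmb, chr13:113180966-113181215 on the minus strand for Gzmk, chr7:43436888-43437137 on the plus strand for Nkg7 and chr1:161788496-161788745 on the minus strand for Fasl. Capitals mark matches, on either strand, to any of 6 motifs that were searched: GGTGTG (T-box), TGTGGT (RUNX), TAAACA (forkhead), TTCNNNGAA (STAT), TGANTCA (AP-1) and GGGANTTCC (NF-kB).
Gzmb: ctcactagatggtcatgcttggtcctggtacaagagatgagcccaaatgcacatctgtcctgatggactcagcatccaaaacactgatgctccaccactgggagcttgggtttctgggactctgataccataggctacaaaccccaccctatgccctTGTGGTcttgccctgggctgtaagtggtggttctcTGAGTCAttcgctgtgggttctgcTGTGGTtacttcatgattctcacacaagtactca
Gzmk: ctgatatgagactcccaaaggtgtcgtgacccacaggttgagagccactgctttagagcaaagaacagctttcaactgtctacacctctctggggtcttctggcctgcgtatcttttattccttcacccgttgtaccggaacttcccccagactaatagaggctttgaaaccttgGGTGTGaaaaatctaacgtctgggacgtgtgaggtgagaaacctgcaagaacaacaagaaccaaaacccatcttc
Nkg7: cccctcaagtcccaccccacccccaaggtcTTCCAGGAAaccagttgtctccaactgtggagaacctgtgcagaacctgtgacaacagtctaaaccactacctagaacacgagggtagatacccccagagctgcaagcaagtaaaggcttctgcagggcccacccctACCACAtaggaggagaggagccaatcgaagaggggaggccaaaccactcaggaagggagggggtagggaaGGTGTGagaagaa
Fasl: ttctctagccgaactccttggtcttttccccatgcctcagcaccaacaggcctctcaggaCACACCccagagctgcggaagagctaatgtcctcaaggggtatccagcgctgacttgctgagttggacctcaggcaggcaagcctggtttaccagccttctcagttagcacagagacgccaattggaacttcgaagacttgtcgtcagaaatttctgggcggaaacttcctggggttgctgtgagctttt

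The Gzmk, Nkg7 and Fasl windows each hold the T-box letters, at -75 to -70 in Gzmk, at -13 to -8 in Nkg7 and, on the opposite strand, at -190 to -185 in Fasl, counted from the start. The window of Prf1, which fell in the same comparisons and is not shown, holds no T-box letters but the RUNX letters on the opposite strand at -130 to -125. It lies before a start other than that of the RefSeq gene, unlike the 4 windows shown. Of the other members not shown, Gzma has no T-box letters in its window. A Gzmm window, also before a start other than that of the gene, holds them at -189 to -184. The Gzmm window at the gene's own start does not, and Gzmm was below the array median on all 10 arrays. The Nkg7 window also holds the RUNX letters on the opposite strand at -83 to -78 and the STAT letters at -220 to -212. The Gzmb window holds no T-box letters but the RUNX letters at -93 to -88 and at -34 to -29, and the AP-1 letters at -58 to -52. The forkhead and NF-kB letters were in none of the 4 windows shown. Over 32851 promoters of this length the T-box letters were found in 16.3%, the RUNX letters in 14.0%, the forkhead letters in 12.0%, the STAT letters in 7.02%, the AP-1 letters in 6.75% and the NF-kB letters in 1.43%, and no 2 matches in the 4 windows overlap. A match describes the sequence only.

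Other genes of the killing machinery were read from fixed lists. Of 15 genes for making, loading and releasing granules, 2 rose and none fell from GFPko to GFPfoxp3, where 7.47% of all genes passed. They were Cst7, a cystatin that restrains granule cathepsins, by 2.59 (limma adjusted p = 0.0204) and Stx11, a syntaxin of granule fusion, by 1.69 (adjusted p = 0.0290). Against CD25pos, Lyst, a protein of lysosome size control, fell by 2.20 in GFPfoxp3 (limma adjusted p = 0.00997) and by 1.33 in GFPko (adjusted p = 0.0428), and Vamp8, a vesicle fusion protein, rose by 0.82 in GFPfoxp3 (adjusted p = 0.0499).

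Of 3 granzyme inhibitors tested, Serpinb6b was the 1 that passed, higher in GFPfoxp3 than in GFPko by 0.74 (limma adjusted p = 0.0416), lower than in CD25pos with a difference of -0.70 (adjusted p = 0.0422), and lower in GFPko than in CD25pos with a difference of -1.44 (adjusted p = 0.0215). Among 6 death receptor and caspase genes tested, Bid, which granzyme B cleaves, was higher in GFPfoxp3 than in GFPko by 1.66 (limma adjusted p = 0.0440). The death ligand Tnfsf10 was higher in GFPfoxp3 than in CD25pos by 0.94 (adjusted p = 0.0299). Of all genes, 7.47% passed in GFPfoxp3 against GFPko, 8.73% in GFPfoxp3 against CD25pos and 3.48% in GFPko against CD25pos. With lists this small, a single call does not set a list apart from all genes. None of the 3 tested genes beside the granzyme loci, and neither of the 2 tested receptors for Ccl4 and Ccl5, passed in any modelled comparison.

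Among 4 other chemokines tested, Ccl20, a ligand of Ccr6, went against Ccl5. It read 8.27 and 8.04 in GFPko and 3.31 to 3.69 on the other 5 sorted arrays, lower in GFPfoxp3 than in GFPko with a difference of -4.73 (limma adjusted p = 0.00371) and higher in GFPko than in CD25pos by 4.59 (adjusted p = 0.00557). Xcl1, made by NK cells and activated T cells, read 5.27 and 4.60 in CD25pos and was below the array median in GFPko and GFPfoxp3, so that CD25pos was at least 3.61-fold above GFPko (adjusted p = 0.0286) and at least 3.71-fold above GFPfoxp3 (adjusted p = 0.0150).

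IL-2 was given to ask which genes respond to it in each population. Over the 3 populations together, no member passed the test, as against 0.235% of all genes, 28 that rose and none that fell. At an unadjusted p under 0.05 limma gave 2 of 9 members, Gzmb and Nkg7, and 1261 of all 11939 genes. Gzmb was higher after IL-2 in 3 of 3 populations, by 1.63 on average (SE 0.238, limma adjusted p = 0.175, range over the alternatives 0.0303 to 0.538). With arrays centred, or with all 10 arrays in the fit, it was the 1 member that passed. Nkg7 was higher in 3 of 3 by 0.49 (interval 0.05 to 0.94, adjusted p = 0.460) and Gzma in 3 of 3 by 1.11 (interval -0.08 to 2.31, adjusted p = 0.493). Prf1 was lower in 3 of 3, with a mean difference of -0.20 (interval -0.54 to 0.14).

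Within single populations, pairs of 1 array each, the 2 members at least 2-fold higher in GFPfoxp3 after IL-2 were Gzmb (2.27-fold) and Gzma (2.14-fold), where 1.95% of all genes differed so far in either direction. In CD25pos they were again Gzmb (4.82-fold) and Gzma (4.63-fold), where 1.35% of genes differed. In GFPko they were Gzmb, at least 2.26-fold since the untreated array was below its median, and Ccl5 (5.39-fold), where 4.92% of genes differed. Gzma in GFPko hardly differed, at 3.15 and 3.19.

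Ccl5 differed after IL-2 by 2.43 in GFPko, by -0.75 in GFPfoxp3 and by -0.46 in CD25pos. In GFPko the summed level of 10 myeloid and mast cell markers went from 25.8 to 29.1 after IL-2, with Lyz2 at 3.36 and 5.71, while it was 25.1 to 25.6 on the GFPfoxp3 and CD25pos arrays. Adgre1 was above the median on every array, and Itgam, Cd14, Cd68, S100a9, Mcpt4 and Cpa3 were below the median on all 10. The sum of the NK markers in GFPko went from 36.0 to 38.3, and that of 8 regulatory T cell markers from 77.6 to 82.9. Of these 8, 3 were at least 2-fold higher, Foxp3 at 8.33 and 9.39, Il2ra at 9.58 and 11.28 and Gpr83 at 10.22 and 11.58. Itgae went the other way, at 7.04 and 6.70. Between the Actb 3′ and 5′ probe sets the gap was 3.07 to 3.80 on the 3 untreated arrays of these populations and 2.70 to 2.86 after IL-2. The part of these in the IL-2 differences was not tested.

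**Figure D4:**
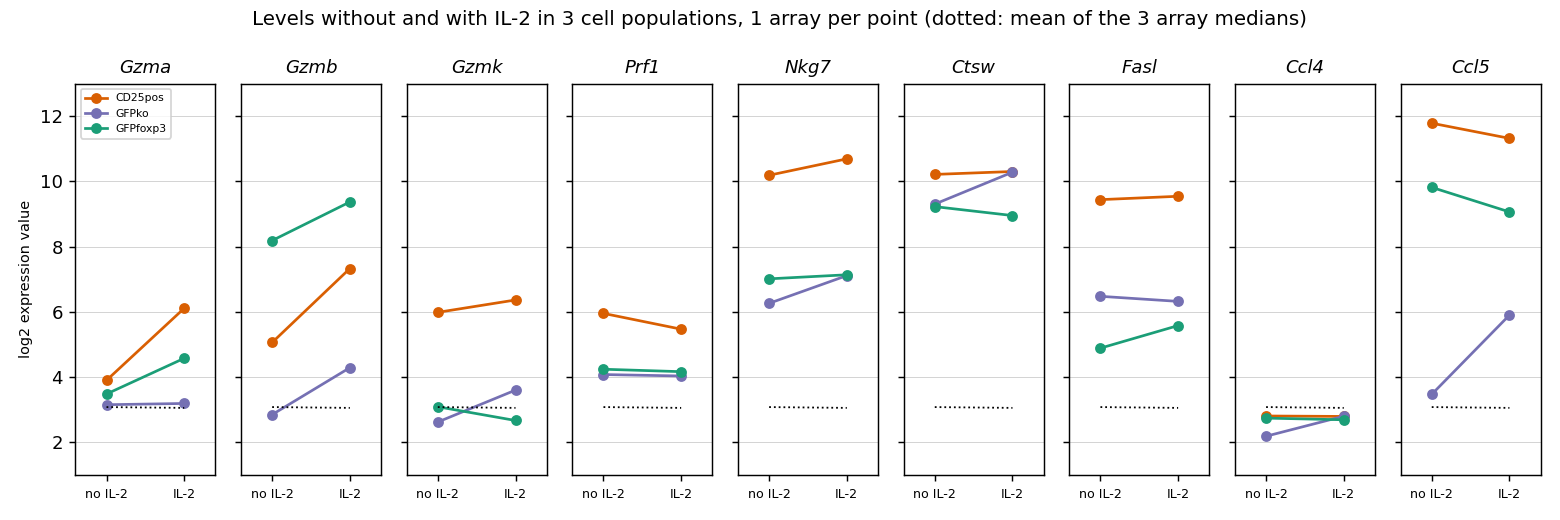
Log2 expression value (vertical axis) of 9 members without and with IL-2 (horizontal axis) in CD25pos, GFPko and GFPfoxp3, 1 array per point, the lines joining arrays of the same population and the dotted line showing the mean array median. Gzmb is higher with IL-2 in CD25pos, GFPko and GFPfoxp3, by 2.27, 1.44 and 1.18, whereas Ccl5 is higher in GFPko and lower in the other two.

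CD25neg cells, of which there was 1 array, give the level in conventional CD4 T cells. CD25pos cells differed from them at least 2-fold in 6 of 9 members, where 7.25% of all genes did. Nkg7 (5.40-fold), Ccl5 (2.88-fold), Fasl (2.70-fold), Ctsw (2.24-fold) and Gzmb (at least 4.01-fold) were higher in CD25pos, and Gzma (2.86-fold) was lower.

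GFPko cells were lower than CD25neg in 6 of 9, where 6.73% of genes differed so far. These were Ccl5 (111-fold), Gzma (4.80-fold), Gzmk (at least 4.70-fold), Prf1 (4.24-fold), Fasl (2.90-fold) and Nkg7 (2.82-fold). GFPfoxp3 cells differed in 5 of 9, where 10.9% of genes did, with Gzmb at least 35.0-fold higher and Fasl (8.71-fold), Gzmk (4.77-fold), Gzma (3.82-fold) and Prf1 (3.79-fold) lower. These 3 comparisons share the CD25neg array.

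The vector arrays ask what PDE3B does in transferred CD25-positive CD4 cells later sorted for GITR, with H801A as the altered enzyme. In culture these cells were given as at least 70% Foxp3-positive. Against the empty vector, the array labelled PDE3B differed at least 2-fold in 4 of 9 members, where 5.44% of all genes did. Ccl4 (3.77-fold), Gzmk (2.14-fold) and Prf1 (at least 2.07-fold) were higher and Gzma (3.33-fold) was lower. The array labelled H801A differed in 1 member, where 2.29% of genes did, Gzma being 5.42-fold lower.

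The PDE3B array exceeded the H801A array in Gzmk (2.57-fold) and Ccl4 (2.43-fold), where 3.03% of genes differed. Gzmb, Nkg7, Ctsw, Fasl and Ccl5 stayed within 2-fold in all 3 of these pairs, which share arrays. The Actb difference was 6.38 on the PDE3B array, 5.87 on the empty and 5.95 on the H801A array, and its part in these differences was not tested. Cd4 read 9.29 on the empty, 8.05 on the PDE3B and 8.65 on the H801A array, and its part was likewise not tested. The myeloid marker Csf1r was below the median on the PDE3B array and at 4.34 and 4.09 on the empty and H801A arrays, and the myeloid and mast cell sum was 26.9, 29.2 and 28.0 for PDE3B, empty and H801A.

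The members did not share a single pattern. Profiles were compared over the 7 sorted arrays, with each gene centred on its own mean. The root mean square difference was smallest for Ctsw and Ccl4, at 0.51, but their spreads about their own means were only 0.57 and 0.20. This measure is small between genes that vary little, and Ccl4 was below the array median on all of these arrays. It was 0.61 for Gzmk and Fasl, 0.65 for Gzmk and Nkg7 and 0.81 for both Gzmk and Prf1 and Nkg7 and Fasl. Gzmb lay 2.32 or more from every other member, and Ccl5 1.92 or more. Their spreads about their own means were 2.41 and 2.81, and the measure is large for genes that vary widely. These distances therefore partly restate that spread. Among all kept genes other than members, those closest to Nkg7 were Ifng, the cytokine interferon gamma (0.32), and Il18rap, a chain of the IL-18 receptor (0.34). The closest to Fasl were Pou2af1 (0.27) and Il2 (0.46), to Gzmk Qpct (0.34) and Anxa1 (0.37), and to Gzmb Nrn1 (0.77) and the mitotic kinase Aurka (0.96).

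For Ccl5 the nearest were Il17rb (1.29) and the chemokine receptor Cxcr3 (1.38), against a spread of Ccl5 about its own mean of 2.81, so no kept gene followed it closely. The closest to Prf1 were Tspan9 (0.26) and Sostdc1 (0.27), to Gzma Man1c1 (0.57) and Sestd1 (0.61), and to Ctsw Stk39 (0.20) and Nhp2 (0.22). Ccl4 was nearest to Zfp27 (0.05) and Smim7 (0.06), a likeness at background level. These values describe 7 arrays that were normalized together.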

How the data were processed

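The values are log2 expression values deposited for 45101 probe sets, and the authors normalized the 10 arrays together, per the series' design text. The log2 scale was read from the range of the values. The sources used here do not give the software, background correction or probe summary. RNA was prepared with Stat-60 from cells sorted by magnetic beads and flow cytometry, per the labels' protocols, and cRNA was amplified in 2 rounds, which shortens it towards the 3′ end.

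Gene names came from the platform annotation, which can be old: 34958 probe sets with 1 gene, 932 with several and 9211 with none listed, and 34754 were updated by Entrez ID to the RefSeq table of GRCm38.p6. A gene was kept where a single-gene probe set reached the array's median over all probe sets on at least 1 array, and its probe set of highest mean was used. A value below its array's median was taken as not above background. Where it is written "at least", a fold compares the brighter side with the higher of the array median and the gene's own value.

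Groups came from the sample titles. The additive fit used limma 3.58.1 in R 4.3.3 (lmFit, eBayes) with 2 residual degrees of freedom and a prior of 2.23 degrees of freedom with an SD of 0.129, and was tested on simulated data. Standard errors are moderated. The number of arrays limits the precision. The members, lists and tests were chosen with earlier results of these data known. Named genes were all members, in each modelled comparison up to 3 called genes of each list with the largest difference, in each pair of arrays up to 2, and for each member the 2 genes of most similar profile. The lists covered genes beside the granzyme loci, granule genes, granzyme inhibitors, death receptors and caspases, chemokines, chemokine receptors, transcription factors and markers of 7 cell types. Alternatives were quantile normalization, centring, other filters and the mean of a gene's probe sets. Further ones left out probe sets marked _x_, _s_ or _a_ in their names, or each array in turn. The rest were robust variance with an intensity trend, a fit of all 10 arrays and a 3-fold threshold.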

Additional observations from a re-analysis of the deposited data

Results flagged for a closer look

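Ccl5 went opposite ways after IL-2 in GFPfoxp3 and GFPko cells. The difference after IL-2 was -0.75 in GFPfoxp3 and 2.43 in GFPko, a difference between these responses of -3.18 on the log2 scale. Each response is that of 1 pair of arrays, so the difference was not tested.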

How the results depend on the processing

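No paired analysis was possible because each group has 1 array and no replicate numbers to block on, and the reported fit already compares populations within IL-2 states. The number of members called moved by over 1.5 times in these cases, and the cause was not tested. For GFPfoxp3 against GFPko (1 in the fit as reported) it was 3 with centred arrays, 3 with a filter on the mean level, 2 with an intensity trend and robust variance and 2 with all 10 arrays. For GFPfoxp3 against CD25pos (5) and GFPko against CD25pos (6) it was 3 and 0 without a filter on dim genes. For the first of these it moved less with centred arrays (6, with Ctsw) and without marked probe sets (4). For IL-2 (0) it was 1 with centred arrays and 1 with all 10 arrays. Leaving out 1 array at a time gave 0 to 1 members for GFPfoxp3 against GFPko, 0 to 5 for GFPfoxp3 against CD25pos, and 0 for GFPko against CD25pos and for IL-2. Fewer arrays leave fewer degrees of freedom, and the genes called over the table ranged from 0 to 408, 0 to 836, 0 and 0.

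A 3-fold threshold in place of the 2-fold one left 2 members for CD25pos against CD25neg, 0 for IL-2 in GFPfoxp3, 1 for IL-2 in GFPko, 2 for PDE3B against the empty vector and 0 for PDE3B against H801A. Leaving out probe sets marked _x_, _s_ or _a_ removes Gzma and the brighter Prf1 probe set. The counts were then 3 for GFPfoxp3 against CD25neg, 1 for IL-2 in GFPfoxp3, 1 for IL-2 in CD25pos, 2 for PDE3B against the empty vector and 0 for H801A against it. The shares of all genes at these 2 settings are not given here. These counts therefore do not tell whether the members moved more than other genes. Signs turned for Prf1 in GFPfoxp3 against GFPko, at -0.0035 with centred arrays and -0.034 with its other probe set, for Prf1 in GFPko against CD25pos at 0.00843 with that probe set, and for Fasl in GFPfoxp3 against GFPko at 0.20 with its other probe set, which is below background on all 4 arrays compared. Of these, Prf1 in GFPko against CD25pos alone had passed the test, and its other probe set was below background on every array. Leaving out 1 array at a time turned the sign of members that had not passed. For GFPfoxp3 against GFPko, Gzmk ranged from -0.78 to 0.32 and Ccl4 from -0.10 to 0.55. For GFPfoxp3 against CD25pos, Ccl4 ranged from -0.26 to 0.0915. For GFPko against CD25pos, Ctsw ranged from -1.002 to 0.0696 and Ccl4 from -0.63 to 0.0163. For IL-2, Gzmk ranged from -0.0209 to 0.68, Ctsw from -0.0924 to 0.53, Fasl from -0.0263 to 0.40, Ccl4 from -0.0323 to 0.30 and Ccl5 from -0.61 to 0.98. Centring moved the median of all genes by -0.15 in GFPfoxp3 against GFPko and by 0.14 in GFPko against CD25pos, and by 0.22 in PDE3B against the empty vector. Over all genes, the counts called in GFPfoxp3 against GFPko, GFPfoxp3 against CD25pos and GFPko against CD25pos were 892, 1042 and 416, and 382, 609 and 33 without the filter. Centring gave 1373 and 858 in the first and last. For IL-2 the count of 28 became 0 to 121 over the alternatives. The share of called genes that were higher went from 72.9% to 51.4% in GFPfoxp3 against GFPko and from 35.8% to 51.6% in GFPko against CD25pos.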

Other observations

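Ccl1, a ligand of Ccr8, read 8.11, 7.41 and 6.97 on the empty, PDE3B and H801A vector arrays, 3.83 in untreated CD25pos, and was below the array median on the other 6 arrays of sorted cells. Gzmc, beside Gzmb in its gene cluster, read 3.97 on the PDE3B array and 3.42 on the H801A array, and lay below the array median on the other 8.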
